A study of Raphidocelis subcapitata with 72 samples.

Results

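Gene expression of the freshwater green alga Raphidocelis subcapitata, strain ATCC 22662, was compared between cultures headed nZVI and cultures headed nFe3O4 after 1 h of exposure. nZVI is nanoscale zero-valent iron and nFe3O4 is nanoscale magnetite. By the labels, mid-log cultures in high salt medium under constant light received 100 mg/L of one particle or the other, and other cultures received no particles and are headed neg. All cultures came from the same strain and medium and differed by the particles and the hour of sampling, 1 h or 4 h. Members were chosen by the headings of the deposited count table. They are 5 libraries of 17 distinct ones, held as 20 lane samples of 72 in the series, with 3 nZVI-headed libraries and 2 magnetite libraries.

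Zero-valent iron oxidises in water, releases iron ions and can give rise to reactive oxygen species. Magnetite is a mixed iron oxide that is already largely oxidised and dissolves little at neutral pH. Green algae use iron in photosynthetic electron transport and respiration and commonly take it up through ferric reductases, ferroxidases and permeases at the cell surface. R. subcapitata is a standard species of growth inhibition tests. By the headings that chose the members, the comparison therefore sets one form of nanoscale iron beside another at one dose, early after contact. The headings are in doubt, as described next.

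Some properties of the files bear on every value. The 4 columns of magnetite replicate 2 at 1 h copy a lane of magnetite replicate 1, so this library was left out and the magnetite group holds replicates 1 and 3. The headings neg and nZVI are exchanged between the count table and a deposited table of regularized log values for 50 genes. Over the 49 of those genes that were tested, the nZVI-headed libraries 1, 2 and 3 of the count table correlated best with the columns headed neg 1, 2 and 3 of the regularized log table, with r = 0.977, 0.982 and 0.983. With the columns of their own heading r was -0.775, -0.65 and -0.725. Magnetite replicates 1 and 3 matched their own headings, with r = 0.978 and 0.983. These are correlations across genes on the same libraries and serve only to match names. Which table carries the right names cannot be told apart from the files. Under the names of the count table the comparison is zero-valent iron against magnetite, and under those of the regularized log table it is particle-free cultures against magnetite. The names of the count table are used throughout, as nZVI-headed, magnetite and neg-headed.

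The 5 libraries held between 31658826 and 38347711 counts, within the range of 26322767 to 43364641 over all 17 libraries. The labels name 3 biological replicates per condition but not whether each was grown from its own inoculum, so the p-values speak of the spread among these libraries, which may be technical. Levels are given as CPM, a gene's count relative to the library total after scaling by the trimmed mean of M values, without division by transcript length. The files pair no locus identifier with a gene name or product, so genes are given by identifier and no gene group was formed.

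The nZVI-headed and magnetite libraries were close to each other at 1 h. The median absolute log2 ratio over the genes tested was 0.196 between the 2 magnetite libraries and 0.188, 0.273 and 0.288 within the nZVI-headed group. Between the groups it ran from 0.224 to 0.401 over 6 library pairs. The lowest distances between the groups were therefore below the highest within the nZVI-headed group. Against the neg-headed libraries the magnetite libraries lay at 0.364 to 0.428 and the nZVI-headed libraries at 0.398 to 0.543, and the neg-headed libraries lay at 0.183 to 0.19 among themselves. nZVI-headed replicate 3 was the farthest of its group from each magnetite and neg-headed library, at 0.323 to 0.543.

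**Figure D1:**
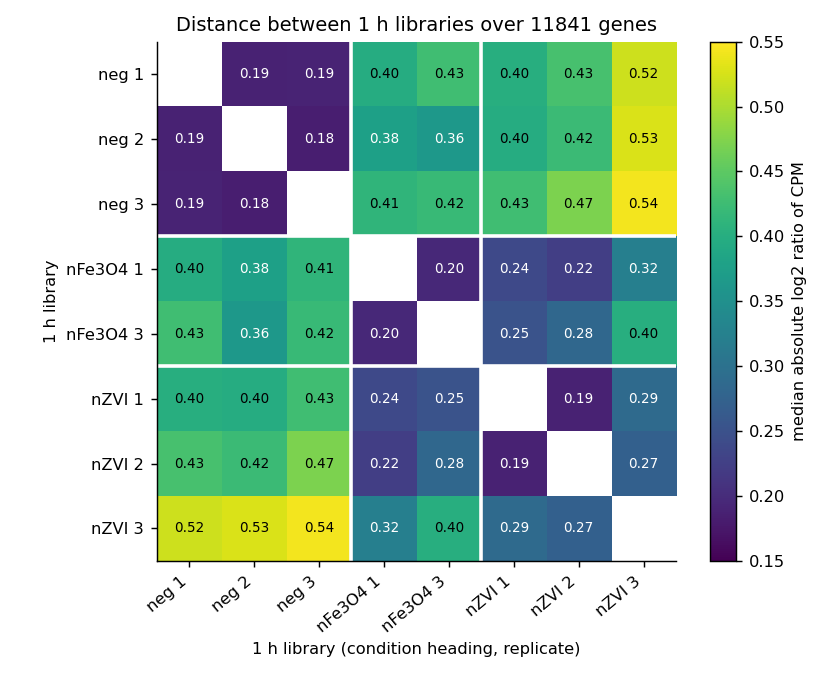
Median absolute log2 ratio of CPM over all tested genes for each pair of the 8 distinct 1 h libraries, with colour and number giving the same value and white lines separating the headings neg, nFe3O4 and nZVI. The block between nFe3O4 and nZVI runs from 0.224 to 0.401, and the blocks against neg run from 0.364 to 0.543.

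The share of genes at least 2-fold apart gave a different order. It was 10.1% between the 2 magnetite libraries. It was 3.39%, 5.19% and 9.47% within the nZVI-headed group. Magnetite replicate 1 differed at least 2-fold from the nZVI-headed libraries in 3.78% to 7.33% of genes, and magnetite replicate 3 in 7.95% to 17.1%. By this measure magnetite replicate 1 was nearer to each nZVI-headed library than to the other magnetite library.

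At 1 h, 365 of 11841 genes differed between the nZVI-headed and magnetite cultures at a Benjamini-Hochberg adjusted p below 0.05 in the quasi-likelihood test of edgeR. This is 3.08% of the genes tested. Of these, 143 were higher in the nZVI-headed cultures, 1.21% of genes tested, and 222 were lower, 1.87%. The median log2 fold change over all tested genes was 0.02. Before adjustment, 2229 genes had p below 0.05, or 18.8%. Under the names of the regularized log table the same result reads as 222 genes higher and 143 lower in magnetite than in particle-free cultures.

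The differences were mostly modest in size. The median log2 fold change was 0.55 among the higher genes, a ratio of 1.46, and -0.69 among the lower genes, a ratio of 1.61 in favour of magnetite. The median absolute log2 fold change over all tested genes was 0.23. Differences of at least 2-fold numbered 56 among the 365 called genes, of which 15 were higher and 41 lower in the nZVI-headed cultures, and 151 were under 1.5-fold. Over all tested genes 407 were at least 2-fold apart, or 3.44%, and here the balance was the other way, with 248 higher and 159 lower. The 351 of these that did not pass the test were 233 higher and 118 lower. Their median mean abundance was -0.48 log2 CPM and their median standard error 0.707, against 3.02 log2 CPM and 0.255 for the 56 called.

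Calls were more frequent among abundant transcripts, where the standard error is smaller. Genes were ranked by mean CPM and split into 4 bins of equal size. The lowest bin held 22 called genes, 0.743% of its members, with a median standard error of 0.404. The highest bin, above 26.5 CPM, held 198, or 6.69%, with a median standard error of 0.123. In the highest bin 98 genes were higher and 100 lower, whereas the 3 bins below it held, from the lowest up, 7, 11 and 27 higher genes and 15, 35 and 72 lower genes. The part of precision in these counts was not tested.

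**Figure D2:**
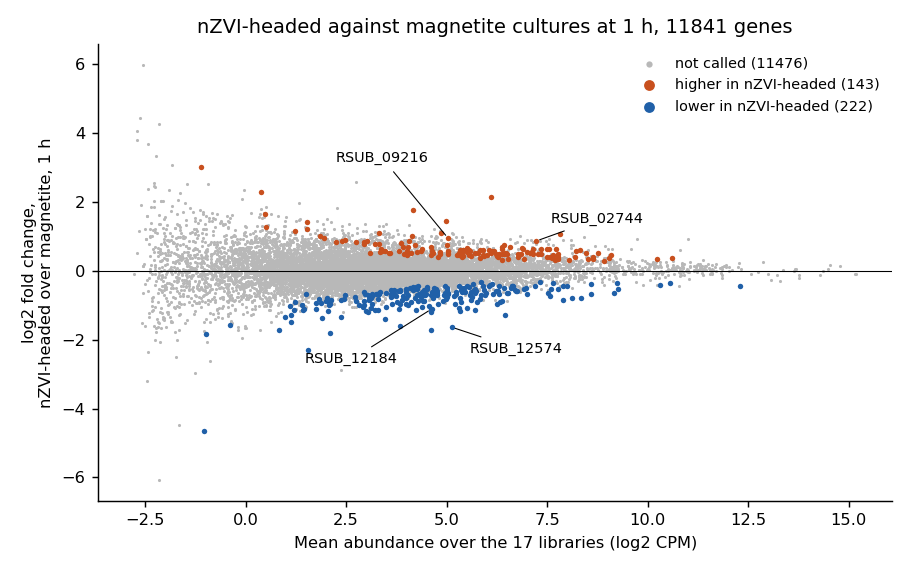
Log2 fold change of nZVI-headed over magnetite cultures at 1 h against mean abundance in log2 CPM over the 17 libraries, one point per gene, with the 143 genes called higher in orange and the 222 called lower in blue. At high abundance small ratios pass the test, and at low abundance most large ratios are grey.

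For each of the 365 called genes, the 3 nZVI-headed libraries lay all on one side of both magnetite libraries. Such separation was common over all tested genes, at 34.7%, while 3.08% were called. For a single gene the 5 libraries allow 10 splits and an exact two-sided permutation test cannot go below p = 0.2. The calls therefore rest on the spread shared across genes and across the 17 libraries of the fit. Fitted on the 8 libraries of the 1 h samples the test called 68 genes, and fitted on the 5 compared libraries it called 2.

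The number of calls rested largely on magnetite replicate 3. Without it 12 genes were called, all lower in the nZVI-headed cultures, and the lone magnetite library was then assumed to vary like the other groups. Without magnetite replicate 1 there were 158 calls. Without nZVI-headed replicates 1, 2 and 3 there were 353, 185 and 131. Called in all 5 of these fits and in the fit of all libraries were 11 genes, every one lower in the nZVI-headed cultures, with log2 fold changes from -1.63 to -0.87. No gene higher in the nZVI-headed cultures stayed called throughout. An axis of variation within the groups, which held 40.4% of the within-group variance, ran through the compared libraries, with scores of -27.7 and 27.7 for magnetite replicates 1 and 3 and 22.8, 3.79 and -26.6 for nZVI-headed replicates 1, 2 and 3. With that axis as a covariate the test called 1675 genes, 956 higher and 719 lower. The axis was the first principal component of deviations from group means in these same libraries. As a covariate it takes up their spread by construction, so the larger count is no evidence of further differences. The magnetite scores mirror each other because both are deviations from their shared mean. What the axis stands for was not tested.

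RSUB_12574 showed the smallest adjusted p of the comparison. Its level was 12.1, 12.3 and 10.9 CPM in nZVI-headed replicates 1, 2 and 3, and 38.4 and 34.6 CPM in magnetite replicates 1 and 3. All nZVI-headed libraries were low and the magnetite libraries were far above them. The groups did not overlap, which the rule for naming genes required of each gene named for a comparison of 2 groups. The group levels were 11.8 ± 0.735 CPM (SD, n = 3) and 36.5 ± 2.72 CPM (SD, n = 2). The log2 fold change was -1.63 ± 0.116 (SE), with an adjusted p of 3.42e-06 by edgeR. The neg-headed libraries stood higher still, at 52.5, 50.4 and 61.9 CPM. The gene kept its call in all 15 alternative settings, with log2 fold changes from -1.74 to -1.56.

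RSUB_12184 was also lower in the nZVI-headed cultures. It stood at 11.4, 9.64 and 13.8 CPM in nZVI-headed replicates 1, 2 and 3 and at 23.6 and 26.4 CPM in magnetite replicates 1 and 3. Both magnetite libraries were above every nZVI-headed library, a separation that the rule required. The log2 fold change was -1.11 ± 0.139 (SE), with an adjusted p of 0.00216 by edgeR. In the neg-headed libraries the level was 24.9 to 25.4 CPM, close to the magnetite level, and the log2 fold change of magnetite over neg-headed was -0.01 ± 0.14 (SE). The call was lost with the fit of the 5 compared libraries alone, at an adjusted p of 0.198 by edgeR.

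RSUB_09216 was higher in the nZVI-headed cultures. Its level was 29.4, 30.7 and 32.2 CPM in nZVI-headed replicates 1, 2 and 3 and 17 and 14.7 CPM in magnetite replicates 1 and 3. The magnetite libraries were the low ones, and the groups did not overlap, as the rule required. The log2 fold change was 0.96 ± 0.128 (SE), with an adjusted p of 0.00249 by edgeR. The neg-headed libraries, at 27 to 30.7 CPM, lay at the nZVI-headed level, with a log2 fold change of nZVI-headed over neg-headed of 0.07 ± 0.111 (SE). Without magnetite replicate 3 the adjusted p by edgeR was 0.0698, and with the 5 compared libraries alone it was 0.156.

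RSUB_02744 was higher in the nZVI-headed cultures, at 244, 223 and 232 CPM in replicates 1, 2 and 3, against 145 and 109 CPM in magnetite replicates 1 and 3. Here the nZVI-headed libraries stood apart and the neg-headed libraries, at 121 to 122 CPM, lay between the 2 magnetite libraries. The log2 fold change was 0.87 ± 0.136 (SE), with an adjusted p of 0.00509 by edgeR. Without magnetite replicate 3 the log2 fold change was 0.68 and the adjusted p by edgeR 0.125, and with the 5 compared libraries alone the adjusted p was 0.194.

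**Figure D3:**
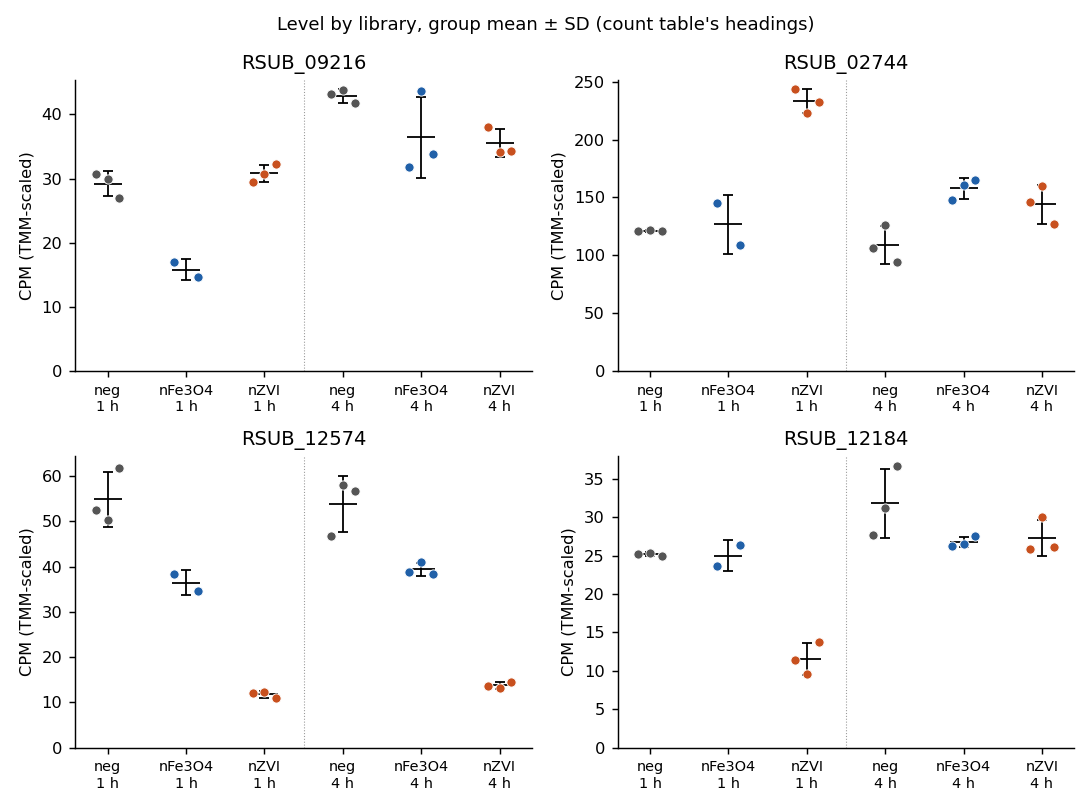
Level in CPM of the 4 genes named for the 1 h comparison, one panel per gene, with one point per library, a black bar for the group mean and whiskers for the SD (n = 3, and n = 2 for nFe3O4 at 1 h) in the 6 groups by heading and hour. RSUB_12574 is low in the nZVI groups at both hours, and the other 3 genes separate nZVI from nFe3O4 at 1 h and not at 4 h.

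The called genes were also set beside the neg-headed cultures. These comparisons share libraries with each other and with the one that chose the genes, so the values are a description. Over the 222 lower genes, the median log2 fold change was -0.72 for nZVI-headed over neg-headed and 0.003 for magnetite over neg-headed. Over the 143 higher genes these medians were 0.24 and -0.34. Over all tested genes they were 0.03 and 0.02. Members went both ways for magnetite over neg-headed, where the interquartile range of the lower genes was -0.305 to 0.304 and that of all tested genes -0.311 to 0.405. For nZVI-headed over neg-headed these ranges were -1.09 to -0.381 and -0.365 to 0.483. Shares were taken of the scaled library total that underlies CPM, not of raw counts. On that scale the 222 lower genes took 1.46% to 1.57% in the nZVI-headed libraries. They took 2.04% and 2.31% in the magnetite libraries and 2.15% to 2.34% in the neg-headed libraries. The 143 higher genes took 1.86% to 2.07%, 1.32% and 1.44%, and 1.69% to 1.72% in the same order of groups.

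At 4 h the same test, within the one fit of all 17 libraries, compared 6 other libraries of the 2 conditions. It called 1 gene, 0.00845% of the genes tested, and 835 genes had p below 0.05 before adjustment. The gene was RSUB_12574, at 13.6, 13.2 and 14.6 CPM in nZVI-headed replicates 1, 2 and 3 and 38.9, 41.1 and 38.3 CPM in magnetite replicates 1, 2 and 3. Its nZVI-headed libraries were again all below its magnetite libraries, a separation that the rule for naming genes required here too. The log2 fold change was -1.51 ± 0.107 (SE), with an adjusted p of 3.2e-06 by edgeR, and the difference between the hours was 0.12 ± 0.157 (SE), with an adjusted p of 0.882. The count was 1 in 5 of the 6 fits without one 4 h library and 4 without nZVI-headed replicate 3. With DESeq2 it was 27. With the within-group axis, drawn from these same libraries, as a covariate it was 341, with 280 genes higher and 61 lower in the nZVI-headed cultures.

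The groups compared at 1 h and at 4 h share no library, though the labels have the flasks sampled at both hours. Both comparisons come from one fit and share its estimate of the spread. Of the 365 genes called at 1 h, 242 had a log2 fold change of the same sign at 4 h, or 66.3%, against 59.6% of all tested genes. The share was 61.5% for the 143 higher genes and 69.4% for the 222 lower genes. The 4 h differences were small, with a median log2 fold change of 0.05 over the higher genes and -0.13 over the lower genes. The size at 4 h was below that at 1 h for 364 of the 365, which were chosen for their 1 h difference, and for 65% of all tested genes. The 1 h comparison had 2 magnetite libraries and the 4 h comparison 3, and standard errors of the named genes were larger at 1 h. What part precision had in these shares was not tested. Across all 11841 genes r between the hours was 0.243, where genes are not independent replicates. It was -0.198 within the 143 higher genes and 0.06 within the 222 lower genes, and 0.226 over both together, which joins sets chosen for opposite signs. Of the 11 genes called in every fit without one library, 5 kept the sign at 4 h. By edgeR at 4 h, 3 of the 11 had p below 0.05 before adjustment with the same sign and 1 with the opposite sign. These numbers were 47 and 14 for the 222 lower genes and 8 and 6 for the 143 higher genes. For all tested genes they were 583 and 252.

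**Figure D4:**
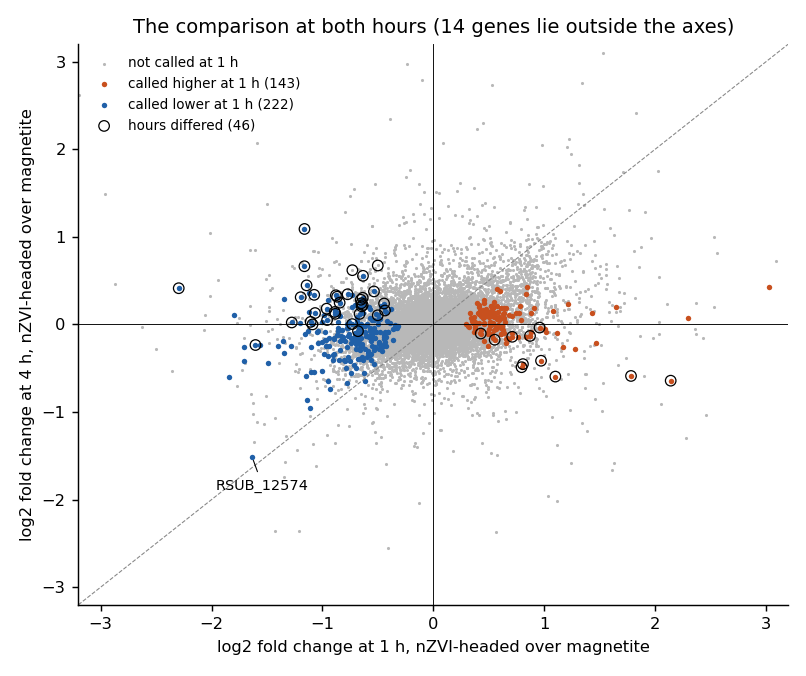
Log2 fold change of nZVI-headed over magnetite cultures at 4 h against that at 1 h, one point per gene, with genes called at 1 h in orange (higher) and blue (lower), the 46 genes whose difference changed between the hours ringed, and a dashed line of equal values. Most coloured points lie near 0 on the vertical axis, and RSUB_12574 lies near the dashed line. 14 genes lie outside the axes.

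The change between the hours was tested as a difference of the differences. It passed at an adjusted p below 0.05 for 46 genes, 0.388% of those tested, by edgeR, and 1177 had p below 0.05 before adjustment. In 35 of them the nZVI-headed over magnetite difference was more positive at 4 h than at 1 h. The values that follow are those that chose these genes and are a description. All 35 were negative at 1 h and 31 were positive at 4 h, with medians of -0.87 and 0.24. The other 11 went from a median of 0.87 at 1 h to -0.42 at 4 h. The number of these genes rested on single libraries, since it was 0 without magnetite 1 h replicate 3, where 800 genes had p below 0.05 before adjustment. It was also 0 without nZVI-headed 4 h replicate 2, where that number was 899. It was 12 to 21 without magnetite 1 h replicate 1, nZVI-headed 1 h replicates 1 or 2, magnetite 4 h replicates 1 or 3, or nZVI-headed 4 h replicate 1. The fit that gave 46 genes treated the libraries of the 2 hours as independent, though the labels have the flasks sampled at both. Across genes, deviations from group means at 1 h and 4 h correlated at r = 0.478 and 0.654 for magnetite replicates 1 and 3. For nZVI-headed replicates 1, 2 and 3 r was 0.302, -0.0238 and 0.46. With flask as a block, taking equal replicate numbers at both hours as the same flask, 123 genes passed. This compares with 27 with replicate number as a block over all libraries and 106 with DESeq2.

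RSUB_11590 stood at 22, 21.9 and 20.5 CPM in nZVI-headed replicates 1, 2 and 3 at 1 h and at 37.4 and 41.6 CPM in magnetite replicates 1 and 3. At 4 h it stood at 31.2, 34.1 and 26.6 CPM in nZVI-headed and 21.1, 27.8 and 24.1 CPM in magnetite replicates 1, 2 and 3. The groups were apart at 1 h and overlapped at 4 h, where nZVI-headed was the higher on average. The difference between the hours was 1.21 ± 0.192 (SE) on the log2 scale, with an adjusted p of 0.0171 by edgeR.

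RSUB_00918 had 48.7, 58.1 and 57.4 CPM in nZVI-headed replicates at 1 h and 99.1 and 101 CPM in the magnetite libraries. At 4 h the nZVI-headed values were 81.7, 85.7 and 66.1 CPM and the magnetite values 63.1, 67.3 and 57.2 CPM. The nZVI-headed libraries were all low at 1 h, and at 4 h one of them fell among the magnetite libraries. The difference between the hours was 1.18 ± 0.158 (SE), with an adjusted p of 0.0171 by edgeR.

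RSUB_11153 changed in the other direction. It had 31.5, 28.9 and 32.9 CPM in the nZVI-headed libraries at 1 h, 18.1 and 11 CPM in the magnetite libraries, and at 4 h 21.9, 22.7 and 20.3 CPM against 28.4, 29.5 and 40.2 CPM. The nZVI-headed libraries were above magnetite at 1 h and below it at 4 h, without overlap at either hour. The difference between the hours was -1.69 ± 0.261 (SE), with an adjusted p of 0.0171 by edgeR. RSUB_04614 did the same, with 19.2, 17.1 and 18 CPM against 12.1 and 8.65 CPM at 1 h and 12.9, 13.1 and 12.4 CPM against 19.5, 16.8 and 16.2 CPM at 4 h. Its groups were apart at both hours, in opposite order. The difference between the hours was -1.26 ± 0.198 (SE), with an adjusted p of 0.0171 by edgeR. All 4 genes lost the call without magnetite 1 h replicate 3, with adjusted p by edgeR from 0.0838 to 0.119, and without nZVI-headed 4 h replicate 2, from 0.0608 to 0.0635.

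**Figure D5:**
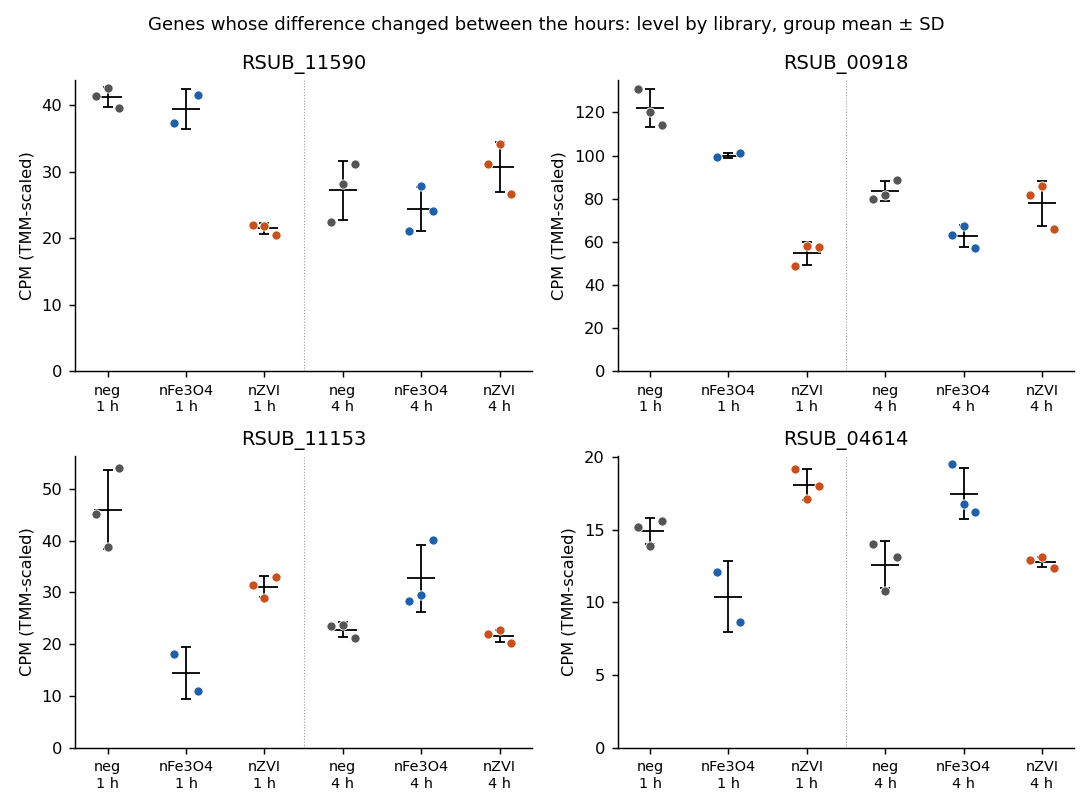
Level in CPM of the 4 genes named for the change between the hours, one panel per gene, with one point per library, a black bar for the group mean and whiskers for the SD (n = 3, and n = 2 for nFe3O4 at 1 h). In RSUB_11153 and RSUB_04614 nZVI lies above nFe3O4 at 1 h and below it at 4 h.

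The authors' deposited tables give the comparison under other headings. The authors' deposited table headed nFe3O4 against control at 1 h lists 364 of the 365 called genes, all with the sign opposite to nZVI-headed over magnetite, and over the 4467 listed genes that were tested 4447 have the opposite sign. The authors' deposited table headed nZVI against nFe3O4 at 1 h lists 264 of the 365, of which 155 have the same sign and 109 the opposite sign. Over the 6461 genes of that authors' deposited table that were tested, 3183 have the same sign and 3278 the opposite sign. For RSUB_12574 the authors' deposited table headed nFe3O4 against control gives a log2 fold change of 1.49, and the one headed nZVI against nFe3O4 gives 0.756. In sign, the first of these authors' deposited tables follows magnetite over nZVI-headed, which is the reading under the names of the regularized log table. The second follows neg-headed over magnetite for the named genes it lists. It gives 1.61, 0.907, 0.472 and 0.35 for RSUB_11153, RSUB_09216, RSUB_04614 and RSUB_00918. Here magnetite over neg-headed was -1.66, -0.883, -0.523 and -0.286, and -0.59 for RSUB_12574. As far as these genes show, its sign counts set different pairs of groups beside each other. This describes names and is no second measurement.

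The regularized log table holds values of its own for magnetite 1 h replicate 2, the library whose counts are a copy. Over the 49 tested genes they correlated with replicate 1 at r = 0.911 and with replicate 3 at r = 0.95, against 0.898 between replicates 1 and 3. The median absolute difference in regularized log2 value was 0.185 from replicate 1, 0.359 from replicate 3 and 0.574 between replicates 1 and 3. Of the 49 genes 3 were among the 365 called, with log2 fold changes of 1.08, -1.12 and 1.46. For these the values of replicate 2 were 0.758, -0.986 and 0.736. The 3 libraries headed neg in that table, which match the nZVI-headed counts, ran from 1.59 to 2.07, from -1.73 to -1.43 and from 1.3 to 1.45. In each of the 3 genes replicate 2 lay on the magnetite side of all those libraries. Over the 49 genes, replicate 2 lay outside those 3 libraries in 23. Over the 49 genes, replicates 1 and 3 lay together on one side of those libraries in 15, and replicate 2 lay on that side too in 12 of the 15.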

How the data were processed

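Poly(A) RNA was sequenced as strand-specific paired-end libraries, per the labels' protocols. HISAT2, bedtools 2.27.1, Trimmomatic, bcl2fastq, SAMtools, DESeq and DESeq2 stand, with no role, among the tools of the submitters' processing notes. How reads were counted, and on which build and annotation, is not given in the sources used here. Whole read counts per gene were deposited for 72 lane columns by the authors, not normalized, per the file headers. The authors also deposited regularized log values on a log2 scale for 50 genes, and tables with a log2 fold change and an adjusted p-value, which were used only as descriptions.

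The 4 columns of a replicate were read as lanes of one library and summed, giving 17 distinct libraries. The low-count filter by group of edgeR 4.0.16 (R 4.3.3, limma 3.58.1), with a minimum count of 10, kept 11841 of 12181 genes. One model of 6 group means was fitted with TMM scaling and the quasi-likelihood test, and p-values were adjusted over all genes tested. Standard errors come from the test statistic. DESeq2 1.42.0 was an alternative. Log2 CPM used a prior count of 2.

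The members, the tests and the rule for named genes were chosen with earlier results of these data known. The rule takes, per comparison, the 2 higher and 2 lower called genes of smallest adjusted p, ties by larger fold change, of a mean of 3 log2 CPM or more and, between 2 groups, no overlap of libraries. The labels do not say that equal replicate numbers mark a shared flask or batch across conditions. With 2 magnetite libraries the deviations from their mean mirror each other, so the 2 pairs of equal number at 1 h cannot decide it. Their deviations correlated across genes at r = -0.503 for replicate 1 and -0.459 for replicate 3. With the numbers crossed r was 0.503 and 0.459 by the mirroring. A shared batch was not tested in the other groups, and the replicate block was kept as an alternative.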

Additional observations from a re-analysis of the deposited data

Results flagged for a closer look

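In 46 genes the nZVI-headed over magnetite difference itself differed between 1 h and 4 h, by a test of the difference with edgeR. The 4 given here are those that the rule for named genes took from them. On the log2 scale the change from 1 h to 4 h was 1.21 for RSUB_11590, 1.18 for RSUB_00918, -1.69 for RSUB_11153 and -1.26 for RSUB_04614. Each has the adjusted p of 0.0171 given above and loses the call without magnetite 1 h replicate 3 or nZVI-headed 4 h replicate 2. Groups of 2 or 3 libraries were too small for a search for single outlying libraries.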

How the results depend on the processing

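At 1 h the count of 365 stayed within 1.5 times under size factors of the RLE kind, without the low-count filter and with a replicate block, which gave 249. It was 659 with DESeq2, 1675 with the within-group axis as a covariate, 946 with the copied library kept and 3727 with lanes as separate samples, where lanes of one library count as replicates. It was 87 with lane 1 alone, 68 with the 1 h libraries only, 2 with the 2 groups only, 46 at an adjusted p below 0.01, and 12 to 353 when leaving out one library. At 4 h the count of 1 became 27 with DESeq2, 341 with the covariate and 1 to 4 when leaving out one library, and stayed 1 with a replicate block. The 46 genes that changed between the hours became 106 with DESeq2, 27 with a replicate block, 123 with a replicate block by culture and 0 to 61 when leaving out one library. The cause of these shifts was not tested, other than fewer libraries or reads, or a covariate drawn from the same libraries, by construction. Across 136 alternative fits of the named genes the call held in 123, was lost in 13 and never turned direction. The named genes were chosen for the smallest adjusted p in these same data, so their holding is a description and no support. The fits include those with lanes as separate samples or the copied library kept, and RSUB_12574 enters at both hours. Of the 365 genes, 315 were also called under RLE, 350 with DESeq2 and 235 with the replicate block.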
